A study of Mus musculus with 17 samples.

Results

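The comparison set B cells of mice labelled DM-CLL against B cells of mice labelled DM, using 5 of the 17 libraries of the series: DM libraries 1, 3 and 6 and DM-CLL libraries 4 and 5, chosen by their genotype label. Both groups carried a mutation of Sf3b1 and a deletion of Atm restricted to B cells on a C57BL/6 background, so that the mutations themselves were shared and the label of leukaemia set the groups apart. The titles describe the mice of all 17 libraries as old, and no age in weeks or months was given. The other 12 libraries were 3 WT, 3 Sf3b1 MT and 6 Atm MT libraries, used for the estimate of spread and as a range for each gene. Bulk RNA-seq of B cells was deposited as TPM, the share of transcripts in a library after correction for transcript length on a fixed total, from which read depth cannot be recovered. None of the labels says whether libraries of a group came from separate mice, so the p-values measure the spread between libraries, which may be partly technical, and 2 leukaemic libraries can represent at most 2 leukaemias.

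Chronic lymphocytic leukaemia (CLL) is a slow expansion of mature B cells that carry the surface protein CD5. In mice, CD5 is otherwise a mark of B-1a cells, a self-renewing B-cell subset of the body cavities and spleen that responds to antigen in part through innate receptors and restrains its antigen receptor through CD5, CD22 and Siglec-G. Follicular B cells, the bulk of splenic B cells, instead carry CD23 and moderate CD21 and recirculate through follicles by way of chemokine receptors. SF3B1 is a subunit of the U2 particle of the spliceosome, which recognises the branch point of introns, and ATM is the kinase that signals DNA double-strand breaks.

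Genes with TPM of at least 1 in at least 2 of the 17 libraries, 9898 in all, were compared as log2(TPM + 1) with limma, and a gene is said below to have risen or fallen where its Benjamini-Hochberg adjusted p was under 0.05 on the deposited values. On that scale 2889 genes (29.2%) rose and 195 (1.97%) fell in DM-CLL. The median difference of all genes was +0.43 on the log2 scale, so that a typical gene stood higher in the leukaemic libraries. After each library was rescaled by its median ratio over 7769 genes, which brought that median to -0.026, 873 genes (8.82%) rose and 749 (7.57%) fell. The 2 scales called 1068 genes in the same direction, 873 up and 195 down, and no gene that rose on the deposited scale fell on the other. Changes are therefore given on the deposited scale with the result after scaling beside them, and a rise smaller than the shift of 0.43 is no rise relative to the other genes.

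**Figure D1:**
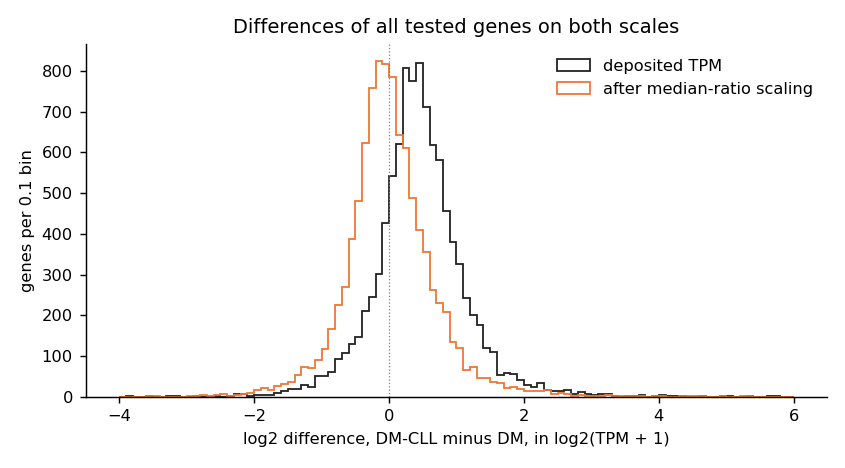
The histogram counts the 9898 tested genes by their log2 difference between DM-CLL and DM in bins of 0.1, on deposited TPM (black) and after median-ratio scaling (orange). The black distribution is centred at 0.43 and the orange one near 0, while the long tails of strongly raised and lowered genes are present on both.

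Several whole-library measures moved with the label. The genes in the table held 48.4%, 43.1% and 46.5% of the TPM of each library in DM libraries 1, 3 and 6 against 59.7% and 52.9% in DM-CLL libraries 4 and 5. Cytosolic ribosomal proteins took 43.3% to 47.7% of the listed TPM in DM and 34.7% and 38.7% in DM-CLL. Rescaling the listed genes to a common total left a median of 0.18 with 1212 rises and 292 falls, and leaving out the ribosomal protein genes as well left a median of -0.0011 with 819 rises and 614 falls. Without DM-CLL library 4 the deposited scale called 1504 genes in place of 3084. The female transcript Xist was at 0.02, 27.5 and 0.01 TPM in DM and 9.54 and 116 TPM in DM-CLL, while the Y-linked Ddx3y was at 9.66, 0 and 7.23 TPM and at 0 in both DM-CLL libraries. Sex as read from these genes therefore differed between most of the DM libraries and the DM-CLL libraries, and with log2 Xist as a covariate, a fit added after the data were seen, 2874 genes were called. In bulk samples a change in the share of cells that express a gene and a change in RNA per cell cannot be told apart.

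The mutated genes were both higher in the leukaemic libraries. Sf3b1 was at 73.9, 39.8 and 58.7 TPM in the 3 DM libraries and 140.3 and 138 TPM in the 2 DM-CLL libraries (log2 difference 1.30 ± 0.27 SE, adjusted p = 0.00249; 0.78 after scaling, adjusted p = 0.0424). The leukaemic values lay above all 3 DM values and within the range of the other 12 libraries, 50.2 to 191 TPM, and the call was lost when ribosomal protein genes were left out and the rest rescaled. Atm was at 4.08, 2.54 and 3.61 TPM in the 3 DM libraries and 7.78 and 9.2 TPM in the 2 DM-CLL libraries (log2 difference 1.12 ± 0.39 SE, adjusted p = 0.0378). Its call was lost after scaling (adjusted p = 0.213) and on leaving out any of the 5 libraries, with adjusted p = 0.0537 without DM 1, 0.109 without DM 3, 0.0539 without DM 6, 0.111 without DM-CLL 4 and 0.137 without DM-CLL 5. TPM per gene do not separate mutant from normal Sf3b1 transcripts or show which Atm exons were read, so neither value checks the genotype.

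Genes of B-1 cells and CLL were the group that stood furthest above the rest. Of 28 such genes tested, 19 rose (67.9%, beside 29.2% of all genes) and none fell. After scaling 14 rose (50%, beside 8.82% of all genes) and none fell. The median difference of the list was 1.67 beside 0.43 for all genes, and 1.15 after scaling beside -0.026. Cd5 itself was at 1.16, 3.07 and 1.76 TPM in the 3 DM libraries and 30.8 and 20.8 TPM in the 2 DM-CLL libraries (log2 difference 3.19 ± 0.62 SE, adjusted p = 0.00144; 2.74 after scaling, adjusted p = 0.00873). Both leukaemic values exceeded those of all 15 other libraries. Ctla4, an inhibitory receptor that binds CD80 and CD86, was at 4.37, 5.91 and 3.07 TPM in the 3 DM libraries and 153 and 209.9 TPM in the 2 DM-CLL libraries (log2 difference 5.08 ± 0.56 SE, adjusted p = 1.91e-05; 4.58 after scaling, adjusted p = 0.000366). Both leukaemic libraries stood above the highest of the other 12, 19.9 TPM. Zbtb32, a transcriptional repressor of the zinc finger and BTB family, was at 2.16, 8.84 and 4.69 TPM in the 3 DM libraries and 172 and 177 TPM in the 2 DM-CLL libraries (log2 difference 4.97 ± 0.91 SE, adjusted p = 0.001). Il5ra, the receptor chain for interleukin-5 found on mouse B-1 cells, was at 2.82, 3.99 and 2.71 TPM in the 3 DM libraries and 64.5 and 73.6 TPM in the 2 DM-CLL libraries (log2 difference 4.08 ± 0.55 SE, adjusted p = 9.85e-05). In both genes the groups were far apart and the 2 leukaemic libraries were alike.

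**Figure D2:**
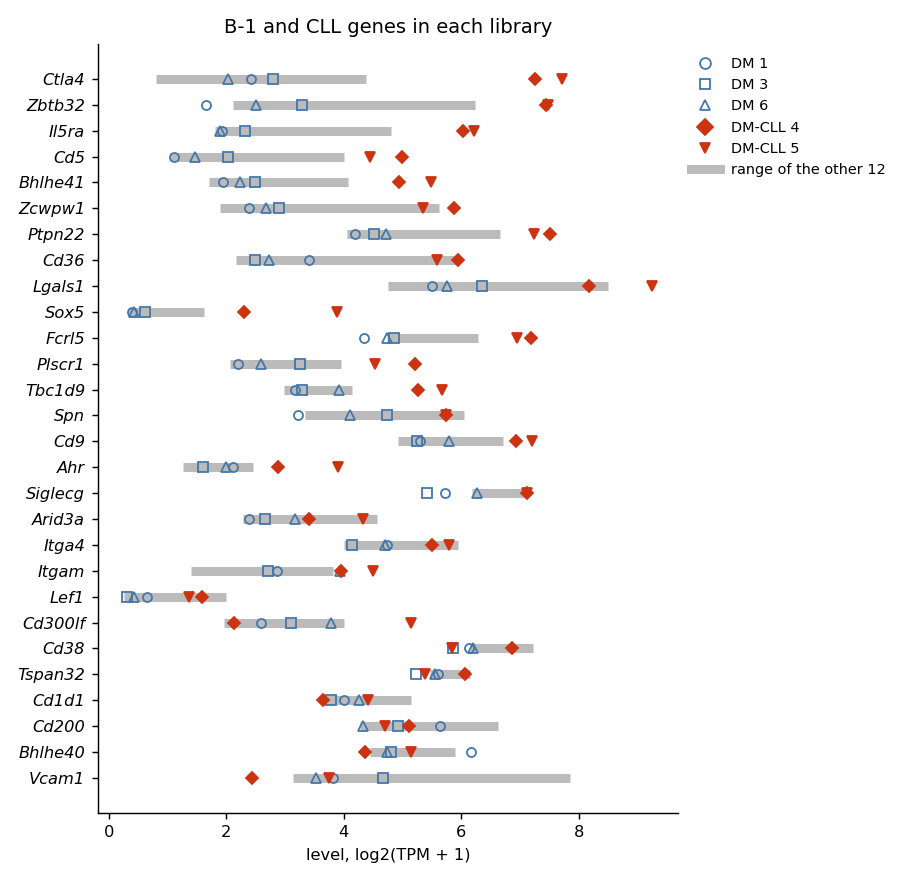
Each row is a B-1 or CLL gene, with its level as log2(TPM + 1) in the 3 DM libraries (open blue), the 2 DM-CLL libraries (filled red) and the range of the other 12 libraries (grey bar). The red points of the upper rows, from Ctla4 to Cd5, lie to the right of the grey bars, whereas in the lower rows, such as Cd200 and Bhlhe40, red and blue points mix.

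The same genes did not rise as a block. Cd200, a surface protein high on human CLL cells, was at 49, 29.3 and 19.1 TPM in the 3 DM libraries and 33.6 and 25.2 TPM in the 2 DM-CLL libraries (log2 difference -0.051 ± 0.55 SE, adjusted p = 0.952), with the groups fully mixed. Spn, which encodes CD43, a B-1 marker, was at 8.33, 25.6 and 16.2 TPM in the 3 DM libraries and 52.2 and 52.3 TPM in the 2 DM-CLL libraries (log2 difference 1.71 ± 0.50 SE, adjusted p = 0.0175) but did not pass after scaling (adjusted p = 0.14) or without DM 1, DM-CLL 4 or DM-CLL 5 (adjusted p = 0.0757, adjusted p = 0.0884 and adjusted p = 0.0632). Lef1, a Wnt pathway transcription factor that is ectopically expressed in human CLL, stayed under 2 TPM in every one of the 5 libraries: 0.57, 0.24 and 0.35 TPM in the 3 DM libraries and 1.99 and 1.57 TPM in the 2 DM-CLL libraries (log2 difference 1.01 ± 0.35 SE, adjusted p = 0.0406; 0.76 after scaling, adjusted p = 0.15). Its call was lost without WT library 2 or any of the 5 libraries, with adjusted p from 0.0506 to 0.191. Ror1, a surface receptor of human CLL, was at most 0.01 TPM in the 5 libraries. Zap70, a T-cell kinase whose presence marks aggressive human CLL, was at 0.28, 0.94 and 0.57 TPM in DM and 4.65 and 0.22 TPM in DM-CLL. Its 1 high library was DM-CLL 4, in which T-cell genes were also high, and the part of those cells in the Zap70 value was not tested.

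Among mouse orthologues of genes that mark human CLL, 12 of 23 rose (52.2%, beside 29.2% of all genes) and 1 fell (4.35%, beside 1.97%). After scaling 6 rose (26.1%, beside 8.82% of all genes) and 2 fell (8.70%, beside 7.57%). The median was 0.69, 0.19 after scaling. Ccnd2, the cyclin D that takes B cells from G1 towards S phase, was at 8.44, 10.03 and 11.7 TPM in the 3 DM libraries and 54.5 and 45.5 TPM in the 2 DM-CLL libraries (log2 difference 2.21 ± 0.40 SE, adjusted p = 0.000844; 1.70 after scaling, adjusted p = 0.0117). Ebi3, a subunit of the cytokines IL-27 and IL-35, was at 11.6, 12.4 and 11.9 TPM in the 3 DM libraries and 106 and 78.5 TPM in the 2 DM-CLL libraries (log2 difference 2.83 ± 0.40 SE, adjusted p = 0.000147; 2.31 after scaling, adjusted p = 0.00153). For both genes the leukaemic libraries lay above all 15 others. The member that fell was Fcer2a, which encodes CD23, a protein high on human CLL cells: 143, 81.1 and 171 TPM in the 3 DM libraries and 31.2 and 18.4 TPM in the 2 DM-CLL libraries (log2 difference -2.34 ± 0.45 SE, adjusted p = 0.00138; -2.86 after scaling, adjusted p = 0.000247). Both leukaemic values lay below all 15 others, so that Cd5 was raised without Cd23. Without DM 3 or Atm MT library 6, 2 members of the list fell.

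The promoter windows of 4 genes are printed to show the genes at the ends of these changes, Ctla4 and Cd5 among the rises and Slpi and Tnfrsf17 among the falls described below. Each window runs from 250 bases before to 50 bases after the annotated start, 5′ to 3′ on the strand of the gene, from RefSeq on build GRCm38.p6. Capitals mark the TATA-box hexamer TATAAA and the E-box CACGTG bound by Myc and other basic helix-loop-helix factors, each searched on both strands. Ctla4 lies at chr1:60908775-60909074 (+), Cd5 at chr19:10738925-10739224 (-), Slpi at chr2:164356458-164356757 (-) and Tnfrsf17 at chr16:11313559-11313858 (+).
Ctla4: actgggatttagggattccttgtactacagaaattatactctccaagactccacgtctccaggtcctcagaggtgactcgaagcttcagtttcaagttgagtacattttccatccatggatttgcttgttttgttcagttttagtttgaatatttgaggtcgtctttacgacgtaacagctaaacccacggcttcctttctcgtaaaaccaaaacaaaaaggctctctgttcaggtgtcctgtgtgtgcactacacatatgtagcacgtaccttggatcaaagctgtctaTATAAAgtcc
Cd5: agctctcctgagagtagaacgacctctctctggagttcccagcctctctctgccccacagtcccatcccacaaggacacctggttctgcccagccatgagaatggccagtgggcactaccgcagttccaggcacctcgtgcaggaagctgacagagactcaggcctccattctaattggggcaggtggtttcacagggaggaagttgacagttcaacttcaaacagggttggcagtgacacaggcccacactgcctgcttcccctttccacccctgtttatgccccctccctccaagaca
Slpi: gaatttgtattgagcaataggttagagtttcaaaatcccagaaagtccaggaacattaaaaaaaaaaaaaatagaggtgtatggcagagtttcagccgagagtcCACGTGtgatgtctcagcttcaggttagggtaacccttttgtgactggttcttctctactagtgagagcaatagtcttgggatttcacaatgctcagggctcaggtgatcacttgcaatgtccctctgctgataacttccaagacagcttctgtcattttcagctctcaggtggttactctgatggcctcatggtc
Tnfrsf17: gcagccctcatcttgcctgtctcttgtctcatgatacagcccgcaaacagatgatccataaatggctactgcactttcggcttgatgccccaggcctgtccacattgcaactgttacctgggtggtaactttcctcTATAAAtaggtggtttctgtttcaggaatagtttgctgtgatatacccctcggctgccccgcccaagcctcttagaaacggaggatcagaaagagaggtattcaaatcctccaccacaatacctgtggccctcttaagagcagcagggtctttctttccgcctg
The Ctla4 and Tnfrsf17 windows each held 1 TATAAA, beginning 41 bases after and 114 bases before the start, and the Slpi window held 1 CACGTG. Of all 32851 promoter windows in the table, 13.6% held TATAAA and 7.15% held CACGTG on either strand. A match describes these letters only.

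The largest rises included genes that are not usually thought of as B-cell genes. Cyp11a1, the enzyme that makes the first step from cholesterol to steroid hormones, was at 0.18, 9.38 and 0.19 TPM in the 3 DM libraries and 206 and 81.1 TPM in the 2 DM-CLL libraries (log2 difference 5.74 ± 0.77 SE, adjusted p = 9.85e-05; 5.32 after scaling, adjusted p = 0.000902). The 12 other libraries stayed at or below 4.93 TPM, and DM library 3 was higher than the other two DM libraries. Avil, Gnb3, Gng13 and Krt18, which encode an actin-binding protein, 2 G-protein subunits and a keratin and are known from chemosensory tuft cells, rose together by 5.66, 5.36, 4.96 and 5.66 on the log2 scale. Avil was at 0.14, 2.99 and 0.21 TPM in the 3 DM libraries and 65.1 and 119 TPM in the 2 DM-CLL libraries (log2 difference 5.66 ± 0.56 SE, adjusted p = 7.96e-06). Vcl, the actin-linking adhesion protein vinculin, was at 4.91, 9.72 and 6.06 TPM in the 3 DM libraries and 154 and 116 TPM in the 2 DM-CLL libraries (log2 difference 4.14 ± 0.54 SE, adjusted p = 8.02e-05; 3.63 after scaling, adjusted p = 0.000709). Dyrk4, a protein kinase, was at 0.7, 0.93 and 0.19 TPM in the 3 DM libraries and 22 and 32.8 TPM in the 2 DM-CLL libraries, and Fabp7, a fatty acid-binding protein of brain, was at 0.12, 0.48 and 0.57 TPM in the 3 DM libraries and 19.5 and 38.1 TPM in the 2 DM-CLL libraries. All of these rises also passed after scaling, and none was lost on leaving out a library.

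Among the 15 largest rises, a few were less even. Vars, the valyl-tRNA synthetase, was at 1.66, 0 and 4.04 TPM in the 3 DM libraries and 204 and 72 TPM in the 2 DM-CLL libraries (log2 difference 5.69 ± 1.31 SE, adjusted p = 0.00457), but the other 12 libraries spread over 0 to 72 TPM and the call was lost without DM-CLL 4 (adjusted p = 0.0594). Snora73a, a small nucleolar RNA, was at 0, 0 and 9.12 TPM in the 3 DM libraries and 151 and 18.1 TPM in the 2 DM-CLL libraries, and lost its call without DM 1, DM 3 or DM-CLL 4 (adjusted p = 0.0538, 0.052 and 0.192). Snora23, of the same class, was listed at 0 in all 15 other libraries and at 69.5 and 4.17 TPM in DM-CLL. Fam179a was at 0.04, 0.36 and 0.07 TPM against 18 and 18.8 TPM and is named without a role.

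Both leukaemic libraries lay above all 15 others in 1494 of the 9898 genes (15.1%) and below all 15 in 211 (2.13%). The 10 widest gaps above were those of Icos, Jph1, Mcc, Runx2, Myo1d, Cyp11a1, Avil, Ctla4, Snora23 and Fam179a. Icos, a costimulatory receptor usually found on activated T cells, was at 0.21, 0.53 and 0.5 TPM in the 3 DM libraries and 9.59 and 11.7 TPM in the 2 DM-CLL libraries (log2 difference 3.04 ± 0.22 SE, adjusted p = 5.48e-07; 2.71 after scaling, adjusted p = 2.80e-06). It was alike in both leukaemic libraries, while the T-cell receptor subunit Cd3g was at 55.1 TPM in DM-CLL 4 and 1.46 TPM in DM-CLL 5. Runx2, the transcription factor of bone formation, was at 0.81, 0.93 and 1.26 TPM in the 3 DM libraries and 12 and 25.4 TPM in the 2 DM-CLL libraries (log2 difference 3.22 ± 0.30 SE, adjusted p = 5.15e-06). Jph1, a junctophilin that joins the endoplasmic reticulum to the cell membrane in muscle, was at 0.19, 0.21 and 0.09 TPM against 8.42 and 7.39 TPM, and Mcc, named for its mutation in colorectal cancer, was at 0.02, 0.08 and 0.07 TPM against 10.8 and 25.8 TPM. None of the other 15 libraries came near the 2 leukaemic libraries in these genes.

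The largest falls were of genes with varied roles. Slpi, a secreted inhibitor of leukocyte proteases, was at 238, 486 and 336 TPM in the 3 DM libraries and 15.8 and 33.1 TPM in the 2 DM-CLL libraries (log2 difference -3.83 ± 0.56 SE, adjusted p = 0.000203; -4.35 after scaling, adjusted p = 0.000352). Prg2, the major basic protein of eosinophil granules, was at 88.1, 159 and 68.3 TPM in the 3 DM libraries and 10.3 and 5.84 TPM in the 2 DM-CLL libraries (log2 difference -3.50 ± 0.58 SE, adjusted p = 0.000493). Vpreb3, which binds immunoglobulin chains during their assembly in B cells, was at 65.6, 52.7 and 59.4 TPM in the 3 DM libraries and 11.2 and 11.8 TPM in the 2 DM-CLL libraries (log2 difference -2.26 ± 0.23 SE, adjusted p = 1.19e-05), with tight values inside each group. Chst1, a sulfotransferase of carbohydrates, was at 9.89, 19.3 and 12.9 TPM against 0.56 and 0.78 TPM, and Myl4, a myosin light chain, at 13.2, 14.2 and 13.6 TPM against 3.3 and 0.97 TPM. Crisp3, Bbs9, Emid1, Lgmn and Cpm, with Slpi, Tnfrsf17, Fcer2a, Vpreb3 and Cr2, made up the 10 widest gaps below all 15 other libraries. Lgmn, the lysosomal protease legumain, was at 74.6, 71.3 and 89.3 TPM in the 3 DM libraries and 31.1 and 28.8 TPM in the 2 DM-CLL libraries (log2 difference -1.35 ± 0.26 SE, adjusted p = 0.00133). Cpm, Mdfic and Ifitm1 lost their calls without DM-CLL 4 (adjusted p = 0.0766, adjusted p = 0.119 and adjusted p = 0.0642).

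Plasma-cell genes ran against the general shift. Of 17 tested, 2 rose and 6 fell, a share of falls of 35.3% beside 1.97% of all genes. After scaling 1 rose and 7 fell (41.2%, beside 7.57% of all genes). The list median was -0.23 on the deposited scale and -0.74 after scaling. Tnfrsf17, the receptor BCMA that keeps plasma cells alive, was at 17.8, 25.3 and 15.7 TPM in the 3 DM libraries and 1 and 1.39 TPM in the 2 DM-CLL libraries (log2 difference -3.21 ± 0.43 SE, adjusted p = 8.91e-05; -3.59 after scaling, adjusted p = 0.000381). Sdc1, which encodes the plasma-cell surface marker CD138, was at 23.9, 31.2 and 24.6 TPM in the 3 DM libraries and 5.63 and 4.44 TPM in the 2 DM-CLL libraries (log2 difference -2.19 ± 0.35 SE, adjusted p = 0.000405). Xbp1, the transcription factor that builds the secretory apparatus, was at 116, 147 and 144 TPM in the 3 DM libraries and 50.8 and 48.5 TPM in the 2 DM-CLL libraries (log2 difference -1.43 ± 0.30 SE, adjusted p = 0.00249; -1.95 after scaling, adjusted p = 0.0015). In all 3 genes every leukaemic value was below every DM value, as in 599 of the 9898 genes. Slamf7, an adhesion receptor of plasma cells, fell by 1.69 on the log2 scale. Pdia4, a disulfide isomerase of the endoplasmic reticulum, moved the other way at 154, 199 and 216 TPM in the 3 DM libraries and 669.7 and 458 TPM in the 2 DM-CLL libraries (log2 difference 1.56 ± 0.28 SE, adjusted p = 0.000857; 1.02 after scaling, adjusted p = 0.0382). Prdm1, which encodes the plasma-cell regulator Blimp-1, was at 2.16, 2.77 and 2.44 TPM in the 3 DM libraries and 4.12 and 8 TPM in the 2 DM-CLL libraries and did not pass after scaling or without DM 1 or DM-CLL 5 (adjusted p = 0.0532 and 0.196), either of which left 1 rise in the list. Immunoglobulin constant-region genes were not analysed here.

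Surface genes of follicular and marginal zone B cells split. Of 30 tested, 11 rose (36.7%, beside 29.2% of all genes) and 4 fell (13.3%, beside 1.97%). After scaling 3 rose (10%, beside 8.82% of all genes) and 5 fell (16.7%, beside 7.57%). The medians were 0.46 as deposited and -0.071 after scaling. Cr2, the complement receptor CD21, was at 56.9, 18.3 and 40.5 TPM in the 3 DM libraries and 4.76 and 8.35 TPM in the 2 DM-CLL libraries (log2 difference -2.29 ± 0.55 SE, adjusted p = 0.00572; -2.77 after scaling, adjusted p = 0.00258). Cd40, the receptor for T-cell help, was at 56.4, 34.6 and 42.1 TPM in the 3 DM libraries and 16.1 and 20.1 TPM in the 2 DM-CLL libraries (log2 difference -1.23 ± 0.32 SE, adjusted p = 0.00925; -1.74 after scaling, adjusted p = 0.00103). Both genes stood below all 15 other libraries, and both lost their calls on the deposited scale without DM-CLL 4 (adjusted p = 0.0734 and adjusted p = 0.0876). Fcrl5, a receptor for immunoglobulin that dampens B cells, was at 19.4, 27.9 and 25.5 TPM in the 3 DM libraries and 145 and 122 TPM in the 2 DM-CLL libraries (log2 difference 2.42 ± 0.31 SE, adjusted p = 6.44e-05; 1.90 after scaling, adjusted p = 0.00201). Tnfrsf13c, the survival receptor for BAFF, was at 35.7, 28.1 and 68.8 TPM in the 3 DM libraries and 120.4 and 112 TPM in the 2 DM-CLL libraries (log2 difference 1.47 ± 0.29 SE, adjusted p = 0.00178; 0.95 after scaling, adjusted p = 0.0138). Cd180, a relative of the Toll-like receptors, was at 75.5, 38.1 and 78 TPM against 144 and 188 TPM and passed on both scales, though not when the table was rescaled without ribosomal protein genes. Without DM-CLL 4, 5 members rose and 1 fell, and without DM 3, 7 rose.

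The genes that define B cells as such were present in all 5 libraries. Cd79a, a signalling chain of the antigen receptor, was at 1307, 866 and 1113 TPM in the 3 DM libraries and 1351 and 1169.8 TPM in the 2 DM-CLL libraries (log2 difference 0.22 ± 0.20 SE, adjusted p = 0.409). The groups overlapped, and its partner chain Cd79b did not pass either (log2 difference 0.45 ± 0.22 SE, adjusted p = 0.13). Ms4a1, which encodes CD20, was at 370.2, 246 and 349.7 TPM in the 3 DM libraries and 695 and 656 TPM in the 2 DM-CLL libraries (log2 difference 1.09 ± 0.24 SE, adjusted p = 0.0032), but did not pass after scaling (adjusted p = 0.072). CD20 is typically dim on human CLL cells. Cd24a was at 457, 415 and 316 TPM against 868 and 827 TPM, and its call was lost after scaling and without DM-CLL 4 (adjusted p = 0.0764).

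Most rises among components of the B-cell receptor cascade were not called after scaling, as for 2016 of the 2889 rises over all genes. Of 38 tested, 19 rose (50%, beside 29.2% of all genes) and 1 fell (2.63%, beside 1.97%). After scaling 6 rose (15.8%, beside 8.82% of all genes) and 5 fell (13.2%, beside 7.57%). The median was 0.58 and 0.054 after scaling. Sos1, the exchange factor that activates Ras, was at 2.36, 2.07 and 3.28 TPM in the 3 DM libraries and 12 and 13.7 TPM in the 2 DM-CLL libraries (log2 difference 1.97 ± 0.26 SE, adjusted p = 8.91e-05; 1.52 after scaling, adjusted p = 0.000659). Rac2, a GTPase of blood cells, was at 234, 198 and 239.7 TPM in the 3 DM libraries and 625 and 579 TPM in the 2 DM-CLL libraries (log2 difference 1.43 ± 0.20 SE, adjusted p = 0.00012; 0.89 after scaling, adjusted p = 0.00191). Prkcb, the protein kinase C of the path to NF-kB, was at 58.4, 34.9 and 59 TPM in the 3 DM libraries and 148 and 122 TPM in the 2 DM-CLL libraries (log2 difference 1.42 ± 0.33 SE, adjusted p = 0.00485; 0.89 after scaling, adjusted p = 0.0269), although its call was lost without DM-CLL 4 (adjusted p = 0.0544). In these 3 genes the groups did not overlap, as in the 4680 of 9898 genes with both DM-CLL values above all DM values. The member that fell, Cr2, is the coreceptor described above. The number of rises was 11 without DM 3, 10 without DM-CLL 4 and 12 without DM-CLL 5, and the number of falls was 2 without DM 3 and 0 without DM-CLL 4.

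Several inhibitors of that cascade rose on both scales. Of 21 inhibitory receptors and phosphatases, 10 rose (47.6%, beside 29.2% of all genes) and 1 fell (4.76%, beside 1.97%). After scaling 8 rose (38.1%, beside 8.82% of all genes) and 2 fell (9.52%, beside 7.57%). The median was 0.32 beside 0.43 for all genes, and 0.08 after scaling beside -0.026. Besides Ctla4, Cd5 and Fcrl5, Ptpn22, a phosphatase that turns off Src-family kinases, was at 17.3, 22 and 25.4 TPM in the 3 DM libraries and 181 and 149 TPM in the 2 DM-CLL libraries (log2 difference 2.89 ± 0.42 SE, adjusted p = 0.000176; 2.37 after scaling, adjusted p = 0.00411). Its leukaemic values lay above all 15 others. Fcgr2b, the inhibitory receptor for IgG, named after its values were seen, was at 58.2, 48.4 and 78 TPM in the 3 DM libraries and 262 and 263 TPM in the 2 DM-CLL libraries (log2 difference 2.10 ± 0.22 SE, adjusted p = 1.21e-05; 1.57 after scaling, adjusted p = 0.000287). Cd22, a lectin that recruits the phosphatase SHP-1, was at 184, 140.5 and 179 TPM in the 3 DM libraries and 87.1 and 98.6 TPM in the 2 DM-CLL libraries (log2 difference -0.84 ± 0.29 SE, adjusted p = 0.0395; -1.37 after scaling, adjusted p = 0.00273). It was lower in both leukaemic libraries than in any other library, but on the deposited scale its call was lost without DM 1, DM 6, DM-CLL 4 or DM-CLL 5 (adjusted p = 0.106, 0.079, 0.19 and 0.0796). Without DM 1, DM 6 or DM-CLL 5 the count of falls was 0.

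Some transcription factors of the B lineage were called as rises, on the deposited scale only. Of 32 tested, 8 rose (25%, beside 29.2% of all genes) and 1 fell. After scaling none rose and 3 fell, with medians of 0.36 as deposited and -0.15 after scaling. Ikzf3, which encodes Aiolos, was at 88.6, 77.6 and 109 TPM in the 3 DM libraries and 207 and 213 TPM in the 2 DM-CLL libraries (log2 difference 1.20 ± 0.29 SE, adjusted p = 0.00576; 0.67 after scaling, adjusted p = 0.0596). Irf8, which promotes the follicular fate, was at 131, 109 and 124 TPM in the 3 DM libraries and 45.1 and 65.5 TPM in the 2 DM-CLL libraries (log2 difference -1.14 ± 0.29 SE, adjusted p = 0.0074; -1.67 after scaling, adjusted p = 0.00101) and lost its call on the deposited scale without DM-CLL 4 (adjusted p = 0.105), leaving no fall. The number of rises was 3 without DM 3, 2 without DM-CLL 4 and 3 without DM-CLL 5.

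Genes of antigen presentation stayed behind the general shift. Of 16 MHC class II pathway genes, 1 rose (6.25%, beside 29.2% of all genes) and none fell. After scaling none rose and 6 fell (37.5%, beside 7.57% of all genes). The median was -0.062 beside 0.43 for all genes, and -0.60 after scaling. The gene that rose, H2-DMb2, a chain of the peptide-exchange factor, was at 380.1, 225 and 289.6 TPM against 472 and 392 TPM (log2 difference 0.56 ± 0.20 SE, adjusted p = 0.0412; 0.025 after scaling, adjusted p = 0.944), and its call was lost without DM 3, DM-CLL 4 or DM-CLL 5, among others, with adjusted p up to 0.26 and no rise left in the list. H2-DMb1 was not analysed here, and reads of the 2 near-identical genes may be split by the counting.

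Costimulatory genes included both rises and falls. Of 21 tested, 6 rose (28.6%, beside 29.2% of all genes) and 2 fell (9.52%, beside 1.97%), with 3 and 2 after scaling. The medians were 0.43 as deposited and -0.06 after scaling. Cd80, a ligand of CD28 and CTLA-4, was at 3.09, 5.28 and 3.78 TPM in the 3 DM libraries and 29.5 and 31.9 TPM in the 2 DM-CLL libraries (log2 difference 2.67 ± 0.33 SE, adjusted p = 4.70e-05; 2.19 after scaling, adjusted p = 0.00101). Tnfsf8, the ligand of CD30, was at 0.35, 1.43 and 0.61 TPM in the 3 DM libraries and 23.3 and 10.4 TPM in the 2 DM-CLL libraries (log2 difference 3.26 ± 0.57 SE, adjusted p = 0.000727; 2.87 after scaling, adjusted p = 0.00548). Pdcd1lg2, a ligand of PD-1, was at 8.91, 6.47 and 11.3 TPM against 21.8 and 22.5 TPM (log2 difference 1.26 ± 0.23 SE, adjusted p = 0.00104; 0.76 after scaling, adjusted p = 0.0318). In all 3 the leukaemic libraries exceeded all 15 others. Cd274, which encodes PD-L1, was high in DM-CLL 5 alone, with 29, 12 and 17.1 TPM against 26.8 and 90 TPM, and its call was lost without DM 3 or DM-CLL 5 (adjusted p = 0.0852 and adjusted p = 0.352). Icosl, the ligand of ICOS, was at 100.3, 54.1 and 111 TPM against 37.5 and 37.8 TPM (log2 difference -1.15 ± 0.40 SE, adjusted p = 0.0398; -1.67 after scaling, adjusted p = 0.00557), thus low where Icos was high. On the deposited scale the Icosl call was lost without DM 1, DM 6, DM-CLL 4 or DM-CLL 5 (adjusted p = 0.113, 0.107, 0.15 and 0.107). The count of falls was 0 without DM-CLL 4 and 1 without DM 1, DM 6 or DM-CLL 5.

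Age-associated and memory B-cell genes held rises, while Tbx21 and Itgax of this list were not called. Of 17 tested, 9 rose and none fell, with 5 rises and 1 fall after scaling, and the median was 1.02 and 0.51 after scaling. Over all genes 29.2% rose, and 8.82% did after scaling. Ahnak, a very large scaffold protein, was at 7.03, 8.18 and 8.55 TPM in the 3 DM libraries and 57.6 and 91.6 TPM in the 2 DM-CLL libraries (log2 difference 3.05 ± 0.51 SE, adjusted p = 0.000514; 2.54 after scaling, adjusted p = 0.00321). Il10, the regulatory cytokine of B-1 and other B cells, was at 4.94, 6.6 and 2.99 TPM in the 3 DM libraries and 25.1 and 35.4 TPM in the 2 DM-CLL libraries (log2 difference 2.45 ± 0.68 SE, adjusted p = 0.0136), and its call was lost after scaling (adjusted p = 0.08), without DM-CLL 4 (adjusted p = 0.0524) and without DM-CLL 5 (adjusted p = 0.0739). Tbx21 and Itgax, which encode T-bet and CD11c, the defining genes of age-associated B cells, are named here after their values were seen. Tbx21 was at 2.64, 5.54 and 5.17 TPM against 1.88 and 2.9 TPM (log2 difference -0.65 ± 0.39 SE, adjusted p = 0.212), and Itgax at 20.8, 23.2 and 36.1 TPM against 9.52 and 17.2 TPM (log2 difference -0.96 ± 0.60 SE, adjusted p = 0.225). Neither passed the test on either scale. Other members of the list went the other way. Itgam was at 6.27, 5.55 and 14.4 TPM against 14.5 and 21.6 TPM, above all 15 other libraries. It did not pass either (log2 difference 1.06 ± 0.47 SE, adjusted p = 0.0967). Fcrl5, which rose on both scales as described above, is also a member.

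Homing and adhesion receptors included both rises and falls. Of 29 tested, 6 rose (20.7%, beside 29.2% of all genes) and 3 fell (10.3%, beside 1.97%). After scaling 2 rose (6.90%, beside 8.82% of all genes) and 6 fell (20.7%, beside 7.57%). The medians were 0.11 as deposited and -0.40 after scaling. Itgb1, the β1 integrin chain, was at 24.4, 34.8 and 44.2 TPM in the 3 DM libraries and 165 and 247 TPM in the 2 DM-CLL libraries (log2 difference 2.55 ± 0.45 SE, adjusted p = 0.000701; 2.03 after scaling, adjusted p = 0.00874). Itgb7, the β7 chain of the gut-homing integrin, was at 53.6, 42.7 and 63.7 TPM in the 3 DM libraries and 210.0 and 258 TPM in the 2 DM-CLL libraries (log2 difference 2.12 ± 0.33 SE, adjusted p = 0.000274; 1.59 after scaling, adjusted p = 0.00444). Both lay above all 15 other libraries. Their partner Itga4 was at 25.6, 16.6 and 25.2 TPM against 44.4 and 54.7 TPM and did not pass after scaling, nor without DM 3, DM-CLL 4 or DM-CLL 5 (adjusted p = 0.109, 0.0911 and 0.139). Cxcr4, the receptor for the marrow chemokine CXCL12, was at 419, 221 and 301 TPM in the 3 DM libraries and 119.6 and 85.9 TPM in the 2 DM-CLL libraries (log2 difference -1.57 ± 0.33 SE, adjusted p = 0.00232; -2.10 after scaling, adjusted p = 0.000478). Ccr7, which draws cells to the T-cell zones, was at 313, 101 and 66 TPM in the 3 DM libraries and 18 and 37.1 TPM in the 2 DM-CLL libraries (log2 difference -2.26 ± 0.52 SE, adjusted p = 0.00462; -2.78 after scaling, adjusted p = 0.00313), and Ccr6 at 10.5, 5.99 and 14.8 TPM against 0.3 and 2.92 TPM. Every leukaemic value of these receptors was under every DM value, but the Ccr7 and Ccr6 calls on the deposited scale were lost without DM-CLL 4 (adjusted p = 0.0785 and adjusted p = 0.108), when 3 members rose and 1 fell.

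Toll-like receptors and their partners rose at about the share of all genes, 31.8% beside 29.2%. Of 22 tested, 7 rose and 1 fell, with 5 and 2 after scaling and medians of 0.55 and 0.041. Tlr7, the X-linked sensor of single-stranded RNA, was at 9.65, 5.13 and 10.8 TPM in the 3 DM libraries and 20.1 and 60.02 TPM in the 2 DM-CLL libraries (log2 difference 1.97 ± 0.44 SE, adjusted p = 0.00389; 1.47 after scaling, adjusted p = 0.0338), higher in DM-CLL 5 than in DM-CLL 4, and its call was lost without DM-CLL 5 (adjusted p = 0.0733). Tlr1, which pairs with TLR2, was at 12.3, 8.72 and 14.7 TPM against 31.5 and 32.2 TPM (log2 difference 1.38 ± 0.30 SE, adjusted p = 0.00355; 0.87 after scaling, adjusted p = 0.0347), within the range of the other 12 libraries, and did not pass when rescaled without ribosomal protein genes. Cd14, a monocyte coreceptor, fell by 1.29 on the log2 scale, a call lost without DM 1, DM 3 or DM-CLL 4 (adjusted p = 0.0773, 0.0727 and 0.3); without DM-CLL 5, 2 members fell. NF-kB subunits and feedback genes gave 4 rises of 26 (15.4%, beside 29.2% of all genes) and no fall. After scaling none of them rose and 3 fell (11.5%, beside 7.57% of all genes). Their medians were 0.38 and -0.11, and without DM 3 there was 1 rise.

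**Figure D3:**
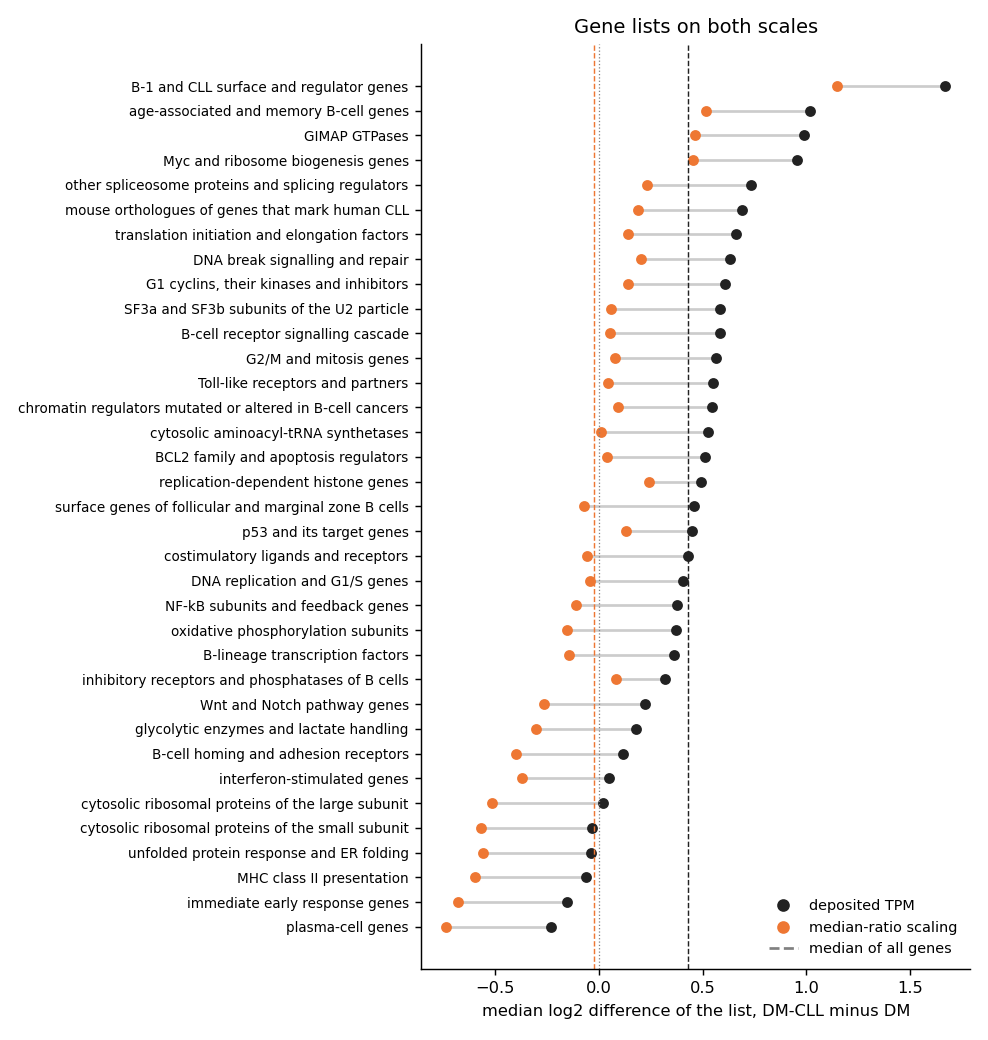
Each row is a gene list, with the median log2 difference of its tested members between DM-CLL and DM on deposited TPM (black) and after median-ratio scaling (orange), and the medians of all genes as dashed lines. Of the rows drawn, which leave out cell marker lists and lists of few members, B-1 and CLL genes lie furthest to the right on both scales, at 1.67 and 1.15, and plasma-cell genes furthest to the left, at -0.23 and -0.74.

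Most rises among survival genes were not called after scaling, as for 2016 of the 2889 rises over all genes. Of 24 members of the BCL2 family and its partners, 8 rose (33.3%, beside 29.2% of all genes) and none fell. After scaling 2 rose (8.33%, beside 8.82% of all genes) and 2 fell. The medians were 0.51 as deposited and 0.037 after scaling. Bcl2, the survival protein that is high in human CLL and targeted in its treatment, was at 12.2, 6.9 and 14.2 TPM in the 3 DM libraries and 21.3 and 38.3 TPM in the 2 DM-CLL libraries (log2 difference 1.35 ± 0.30 SE, adjusted p = 0.00338; 0.84 after scaling, adjusted p = 0.0395). The lower leukaemic value, 21.3 TPM, lay within the range of the other 12 libraries, 11.8 to 27.4 TPM, and the call was lost without DM-CLL 5 (adjusted p = 0.0555) and when the table was rescaled without ribosomal protein genes. Mcl1, another survival protein, was at 143, 89.4 and 199.7 TPM in the 3 DM libraries and 220.4 and 316 TPM in the 2 DM-CLL libraries (log2 difference 0.94 ± 0.28 SE, adjusted p = 0.019), and its call was lost after scaling (adjusted p = 0.26) and without DM 3 or DM-CLL 5 (adjusted p = 0.0787 and 0.144). Bbc3, the death-promoting p53 target PUMA, was at 1.72, 1 and 1.13 TPM in the 3 DM libraries and 5.8 and 4.11 TPM in the 2 DM-CLL libraries (log2 difference 1.38 ± 0.27 SE, adjusted p = 0.0016; 1.001 after scaling, adjusted p = 0.022). The number of rises was 5, 4 and 3 without DM 1, DM 3 and DM-CLL 4.

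Some G1 regulators rose, and almost no gene of replication or mitosis was called. Of 18 G1 cyclins, kinases and inhibitors, 7 rose (38.9%, beside 29.2% of all genes) and none fell. After scaling 3 rose (16.7%, beside 8.82% of all genes) and 1 fell (5.56%, beside 7.57%). The medians were 0.61 as deposited and 0.14 after scaling. Cdkn2a, the locus of p16 and p19ARF, was at 0.5, 1.17 and 0.57 TPM in the 3 DM libraries and 7.96 and 7.4 TPM in the 2 DM-CLL libraries (log2 difference 2.33 ± 0.47 SE, adjusted p = 0.00201; 1.96 after scaling, adjusted p = 0.0156). Rb1, the retinoblastoma protein, was at 16.2, 9.81 and 10.8 TPM in the 3 DM libraries and 42 and 48.8 TPM in the 2 DM-CLL libraries (log2 difference 1.83 ± 0.34 SE, adjusted p = 0.00116; 1.32 after scaling, adjusted p = 0.0178). Without DM 3 or DM-CLL 4, 4 and 4 members rose, and 1 fell without DM-CLL 4. Of 36 replication genes and 38 mitosis genes, 1 in each rose (2.78% and 2.63%, beside 29.2% of all genes). After scaling none did, beside 8.82% of all genes. Mki67, a gene of cycling cells, was at 6.57, 23.9 and 8.83 TPM in the 3 DM libraries and 49 and 19.98 TPM in the 2 DM-CLL libraries (log2 difference 1.40 ± 0.64 SE, adjusted p = 0.104). The high libraries were DM-CLL 4 and DM 3. The mean of the mitosis genes was also highest in DM-CLL 4 and then DM 3. In log2(TPM + 1) it was 2.57, 3.97 and 2.56 in DM and 4.22 and 2.98 in DM-CLL. Leaving out DM 3 gave 3 rises among replication genes and 7 among mitosis genes, leaving out DM-CLL 5 gave 4 and 4, and leaving out DM 1, DM 6 or DM-CLL 4 gave none. Among libraries outside the 2 groups, leaving out single ones gave 0 to 4 rises of mitosis genes.

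Myc and many of the genes that build ribosomes rose, while few ribosomal protein genes did. Myc was at 17, 5.85 and 14.3 TPM in the 3 DM libraries and 46.5 and 38.2 TPM in the 2 DM-CLL libraries (log2 difference 1.80 ± 0.38 SE, adjusted p = 0.00242; 1.30 after scaling, adjusted p = 0.0278), with both leukaemic libraries above all 15 others. Of 47 Myc and ribosome biogenesis genes, 36 rose (76.6%, beside 29.2% of all genes) and none fell. After scaling 10 rose (21.3%, beside 8.82% of all genes) and none fell. The medians were 0.95 as deposited and 0.45 after scaling. Wdr43, a factor of the small-subunit precursor, was at 15.9, 13.9 and 17.7 TPM in the 3 DM libraries and 71.3 and 73.4 TPM in the 2 DM-CLL libraries (log2 difference 2.13 ± 0.29 SE, adjusted p = 0.000112; 1.61 after scaling, adjusted p = 0.00118). Gnl3, the nucleolar GTPase nucleostemin, was at 13.8, 14.8 and 15.5 TPM against 55.8 and 51.8 TPM, and Nop58, a core protein of box C/D RNA particles, at 20.2, 22.6 and 21 TPM against 86.5 and 62.4 TPM. Both passed on both scales. Without DM-CLL 4, 16 members rose. Of 47 large-subunit and 31 small-subunit ribosomal proteins, 2 and none rose and none fell, with medians of 0.02 and -0.032 on the deposited scale. After scaling 12 and 6 of them fell, beside 7.57% of all genes. The risers, Rpl8 and Rpl37, lie on chromosome 15, and each lost its call without a single library, Rpl8 without DM-CLL 4 (adjusted p = 0.0675) and Rpl37 without DM 3 or DM-CLL 5 (adjusted p = 0.0508 and 0.118). Without DM 6, 2 small-subunit genes rose.

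Translation and metabolism gave few calls after scaling. Over all genes 29.2% rose, and after scaling 8.82% rose and 7.57% fell. Of 26 translation factors 13 rose, with 3 rises and 3 falls after scaling, and of 20 cytosolic tRNA synthetases 9 rose, with 2 rises and 1 fall. Pabpc1, the poly(A)-binding protein, was at 306, 283 and 342 TPM in the 3 DM libraries and 795 and 773 TPM in the 2 DM-CLL libraries (log2 difference 1.34 ± 0.18 SE, adjusted p = 8.74e-05; 0.80 after scaling, adjusted p = 0.00508), and Tars, the threonyl-tRNA synthetase, at 16.9, 18.7 and 23.4 TPM against 58.6 and 56.3 TPM (log2 difference 1.51 ± 0.20 SE, adjusted p = 9.85e-05; 0.99 after scaling, adjusted p = 0.00285). Both genes lie on chromosome 15. Of 60 subunits of oxidative phosphorylation 9 rose, a smaller share than over all genes, and none did after scaling, where 2 fell. The 4 largest of those rises, Atp5g2, Ndufb9, Cyc1 and Cox6c, were all on chromosome 15 as well. Of 25 glycolytic genes 6 rose and none did after scaling, where 3 fell. Without DM-CLL 4 the rises were 5, 1, 2 and 1 in these 4 lists in turn. Oxidative phosphorylation gave 20 rises without DM-CLL 5, and glycolysis gave 3 without DM 1 and 3 without DM 3.

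Stress and activation programmes showed few calls. Over all genes 29.2% rose and 1.97% fell, and after scaling 8.82% rose and 7.57% fell. Each list below rose at a smaller share than all genes on the deposited scale. Of 25 genes of the unfolded protein response, 5 rose and 2 fell, and after scaling 2 rose and 6 fell. Syvn1, a ubiquitin ligase of the endoplasmic reticulum, was at 8, 10.2 and 15.6 TPM against 31.2 and 27.4 TPM (log2 difference 1.35 ± 0.27 SE, adjusted p = 0.00201; 0.85 after scaling, adjusted p = 0.0395), and did not pass when rescaled without ribosomal protein genes. Of 42 interferon-stimulated genes, 6 rose and none fell, with 2 and 3 after scaling. Gbp3, a guanylate-binding protein, was at 20, 11.6 and 15.7 TPM in the 3 DM libraries and 91.6 and 54.8 TPM in the 2 DM-CLL libraries (log2 difference 2.13 ± 0.30 SE, adjusted p = 0.000158; 1.62 after scaling, adjusted p = 0.00213). Rsad2, which encodes viperin, was raised in DM-CLL 4 alone, with 1.09, 0.51 and 2.03 TPM against 41.4 and 1.16 TPM, and its difference without that library was 0.03. Of 33 immediate early genes, 1, Myc, rose and 3 fell, with 1 and 5 after scaling. Zfp36, which encodes an RNA-binding protein that destabilises cytokine messages, was at 965, 442 and 499 TPM in the 3 DM libraries and 187 and 400.2 TPM in the 2 DM-CLL libraries (log2 difference -1.12 ± 0.34 SE, adjusted p = 0.0194; -1.66 after scaling, adjusted p = 0.00697). The 3 falls of this list, Dusp1, Zfp36 and Dusp2, were all lost without DM-CLL 4 (adjusted p = 0.331, 0.311 and 0.144), and none was left without DM 1, while 5 genes fell without DM-CLL 5. Rises of the unfolded protein response numbered 2, 3 and 2 without DM 3, DM-CLL 4 and DM-CLL 5, its falls numbered 1 without DM 3 or DM-CLL 5, and the rises of interferon-stimulated genes numbered 3, 2 and 3.

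Spliceosome genes, the complex to which Sf3b1 belongs, held many rises on the deposited scale, and few rose after scaling. Of 16 SF3a and SF3b subunits and partners 8 rose, with 3 rises and 1 fall after scaling. Of 58 other spliceosome proteins 28 rose, with 4 rises and 1 fall after scaling. Over all genes 29.2% rose, and after scaling 8.82% rose and 7.57% fell. The medians were 0.58 and 0.73, and 0.056 and 0.23 after scaling. Hnrnpa1, a repressor of splice sites on chromosome 15, was at 277, 268 and 343 TPM in the 3 DM libraries and 1091 and 1031 TPM in the 2 DM-CLL libraries (log2 difference 1.85 ± 0.23 SE, adjusted p = 4.95e-05; 1.31 after scaling, adjusted p = 0.00088). Srrm2, a scaffold of nuclear speckles on chromosome 17, was at 44.2, 29.4 and 43.4 TPM in the 3 DM libraries and 104 and 149 TPM in the 2 DM-CLL libraries (log2 difference 1.67 ± 0.36 SE, adjusted p = 0.0029; 1.14 after scaling, adjusted p = 0.0252). Puf60, which binds U2 particles near the 3′ splice site, was at 44.1, 47.7 and 46.5 TPM against 116 and 80.1 TPM and passed on both scales. Without DM-CLL 4, 3 and 14 members of the 2 lists rose, and 5 SF3 members rose without DM 1 and 5 without DM 3.

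DNA damage genes, the pathway of Atm, gave 12 rises of 34 (35.3%, beside 29.2% of all genes) and no fall. After scaling 1 rose (2.94%, beside 8.82% of all genes). The medians were 0.63 as deposited and 0.20 after scaling. The gene that passed on both scales was Dclre1c, the nuclease Artemis of end joining, at 2.64, 2.57 and 3.17 TPM in the 3 DM libraries and 7.38 and 10.4 TPM in the 2 DM-CLL libraries (log2 difference 1.37 ± 0.30 SE, adjusted p = 0.00341; 0.93 after scaling, adjusted p = 0.0241). Without DM 1, 4 members rose, and without DM-CLL 4, 3. Of 27 p53 pathway genes, 10 rose (37.0%, beside 29.2% of all genes) and none fell. After scaling 5 rose (18.5%, beside 8.82% of all genes) and 1 fell. The medians were 0.45 as deposited and 0.13 after scaling. Mdm4, an inhibitor of p53, was at 26.9, 13.8 and 25.2 TPM in the 3 DM libraries and 73.6 and 118 TPM in the 2 DM-CLL libraries (log2 difference 2.09 ± 0.38 SE, adjusted p = 0.000895; 1.57 after scaling, adjusted p = 0.00743). Polk, a DNA polymerase that copies past lesions, was at 1.52, 1.2 and 1.26 TPM against 5.08 and 5.02 TPM and passed on both scales. For Mdm4 and Polk the leukaemic values overlapped the range of the other 12 libraries.

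Chromatin regulators and GIMAP GTPases held some of the stronger single changes. Of 32 chromatin regulators 12 rose, with 3 after scaling and no fall on either scale. Over all genes 29.2% rose, and 8.82% did after scaling. Chd1, a remodeller of active genes, was at 8.08, 5.81 and 7.48 TPM in the 3 DM libraries and 90.9 and 59 TPM in the 2 DM-CLL libraries (log2 difference 3.20 ± 0.37 SE, adjusted p = 2.97e-05; 2.70 after scaling, adjusted p = 0.00042), and Hdac9, a histone deacetylase, at 7.12, 5.77 and 7.51 TPM in the 3 DM libraries and 48.1 and 33.3 TPM in the 2 DM-CLL libraries (log2 difference 2.40 ± 0.34 SE, adjusted p = 0.000134; 1.90 after scaling, adjusted p = 0.000902). Both lay above all 15 other libraries. Of 8 GIMAP genes, GTPases of lymphocyte survival clustered on chromosome 6, 4 rose and 3 did after scaling. Gimap4 was at 93.1, 83.7 and 119 TPM in the 3 DM libraries and 558 and 311 TPM in the 2 DM-CLL libraries (log2 difference 2.08 ± 0.27 SE, adjusted p = 8.55e-05; 1.55 after scaling, adjusted p = 0.00079). Without DM-CLL 4, 5 chromatin regulators rose. Wnt and Notch genes gave 5 rises of 21 and 1 of 23 replication-dependent histones rose, none of them after scaling; without DM 3 or DM-CLL 4 neither list had a rise. Without DM 1 or DM-CLL 5, 3 Wnt or Notch genes rose, while histones gave 0 and 4 rises.

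Genes of 2 chromosomes stood above the rest in both leukaemic libraries. For genes of at least 1 TPM in all libraries, each library was set against the mean of the 15 nonleukaemic libraries and centred on its own median. Chromosome 15, with 319 such genes, had medians of 0.58 and 0.60 on the log2 scale in DM-CLL 4 and 5. Chromosome 17, with 418, had medians of 0.21 and 0.30. The other 18 chromosomes lay between -0.14 and 0.079 in the leukaemic libraries, and the 3 DM libraries, which help set the baseline, lay between -0.050 and 0.063 on every chromosome. After median-ratio scaling, 157 of 396 tested genes of chromosome 15 rose (39.6%) and 96 of 520 of chromosome 17 (18.5%), beside 8.82% of all genes and 4.27% to 9.77% on the other 18. RNA levels alone do not count copies, and DNA was not analysed here. Myc, Rac2, Tnfrsf13c, Itgb7, Hnrnpa1, Pabpc1 and Tars are among the raised genes on chromosome 15, and Vars, Gng13, Ebi3, Sos1, Wdr43, Runx2, Chd1 and Srrm2 among those on chromosome 17.

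**Figure D4:**
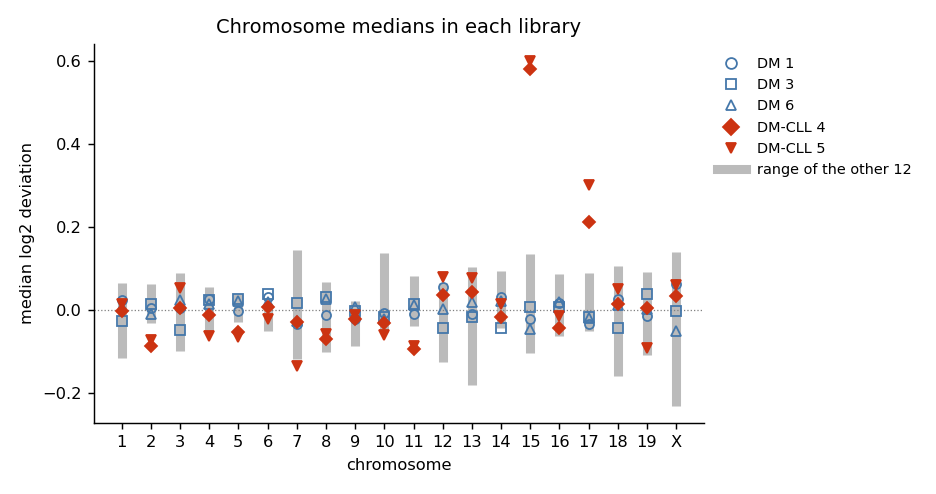
For each chromosome the plot gives the median log2 deviation of its genes from the mean of the 15 nonleukaemic libraries, in the 3 DM libraries (open blue), the 2 DM-CLL libraries (filled red) and as a range over the other 12 libraries (grey). On chromosomes 15 and 17 the red points, at 0.58 and 0.60 and at 0.21 and 0.30, lie above the grey range and the blue points.

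The leukaemic libraries also differed from each other. Over 7424 genes with at least 5 TPM in either of them, 537 were over 2-fold higher in DM-CLL 4 and 239 over 2-fold higher in DM-CLL 5, as a description of 2 libraries with no test. Their correlation over all tested genes was 0.925, beside 0.945 to 0.972 between DM libraries. The 10 largest differences towards DM-CLL 4 were mainly genes of red cells and neutrophils. Hba-a2, an α-globin gene, was at 392, 1401 and 162 TPM against 27113 and 25.8 TPM, and Alas2, the haem synthesis enzyme of red cells, at 5.7, 14.2 and 1.64 TPM against 184 and 0.04 TPM. Ngp and Camp, granule proteins of neutrophils, were at 15.2, 14.7 and 7.94 TPM against 120.3 and 0.98 TPM and 13.8, 12.5 and 6.85 TPM against 83.5 and 0.51 TPM. DM-CLL 4 was the highest and DM-CLL 5 the lowest of the 5 libraries for all 4 genes. Towards DM-CLL 5, the largest differences were mostly small nucleolar and other short RNAs, among them Snord118 and Snord22, which were listed at 0 in DM-CLL 4, DM 1 and DM 3. Rgs1, a brake on chemokine receptor signalling, was at 284, 115 and 49.6 TPM in the 3 DM libraries and 6.62 and 206 TPM in the 2 DM-CLL libraries, and the groups overlapped.

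Erythroid, neutrophil, T-cell and most natural killer markers were also higher in DM-CLL 4 than in DM-CLL 5, whereas monocyte, dendritic, platelet and stromal markers were not. Of the natural killer markers, Ccl5 was at 50.1, 62.2 and 73.9 TPM in DM and 119 and 21.9 TPM in DM-CLL. Nkg7 was at 5.7, 10.2 and 13.8 TPM and 27.9 and 3.68 TPM, while Klrd1 was at 7.5 and 8.28 TPM in DM-CLL. Summed over the 13 T-cell markers tested, levels were 141, 139 and 148 TPM in DM, 474 TPM in DM-CLL 4 and 296 TPM in DM-CLL 5. Cd2, which mouse B cells also express, made up most of the sum in DM-CLL 5. Cd3g was at 0.76, 3 and 2.55 TPM in DM and 55.1 and 1.46 TPM in DM-CLL, and Cd8b1 at 0.91, 2.93 and 1.66 TPM and 25.0 and 0.53 TPM. 3 T-cell markers, Icos, Il7r and Cd2, rose, and 10 did without DM-CLL 5. The 13 erythroid markers summed to 760, 2737 and 332 TPM in DM and to 35425 and 83.5 TPM in DM-CLL, with 2 rises, none without DM-CLL 4 and 5 without DM-CLL 5. The 16 neutrophil markers summed to 887, 494 and 1616 TPM and to 1433 and 137 TPM, with no call. Monocyte and macrophage markers summed to 940, 785 and 1323 TPM and to 723 and 848 TPM. Among 22 there were 2 rises and 2 falls, beside 29.2% and 1.97% of all genes. The rises of this list, Fcgr4 and Cd68, were lost without DM-CLL 4 (adjusted p = 0.0659 and adjusted p = 0.11). Of its falls, Ly6c2 was lost without DM-CLL 5 (adjusted p = 0.0642) and Cd14 without the libraries given above, each of which left 1 fall. Natural killer, platelet, dendritic, stromal and basophil or mast cell markers gave 1, 0, 0, 1 and 0 rises and no fall on the deposited scale, and the single rises, Gzmb and Cdh5, were not stable. The Gzmb call was lost without DM 1, DM 3 or DM-CLL 4 (adjusted p = 0.0749, 0.0597 and 0.366). The Cdh5 call was lost without DM 1, DM 3, DM-CLL 4 or DM-CLL 5 (adjusted p = 0.0659, 0.0613, 0.0737 and 0.07), and 2 natural killer markers rose without DM-CLL 5. Defining B-cell markers summed to 3473, 2495 and 3515 TPM in DM and 4329 and 3950 TPM in DM-CLL. The part of other cells in the calls was not tested. Leaving out DM-CLL 5 cannot test it, as the library kept is the one with the higher T-cell, erythroid and neutrophil markers.

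**Figure D5:**
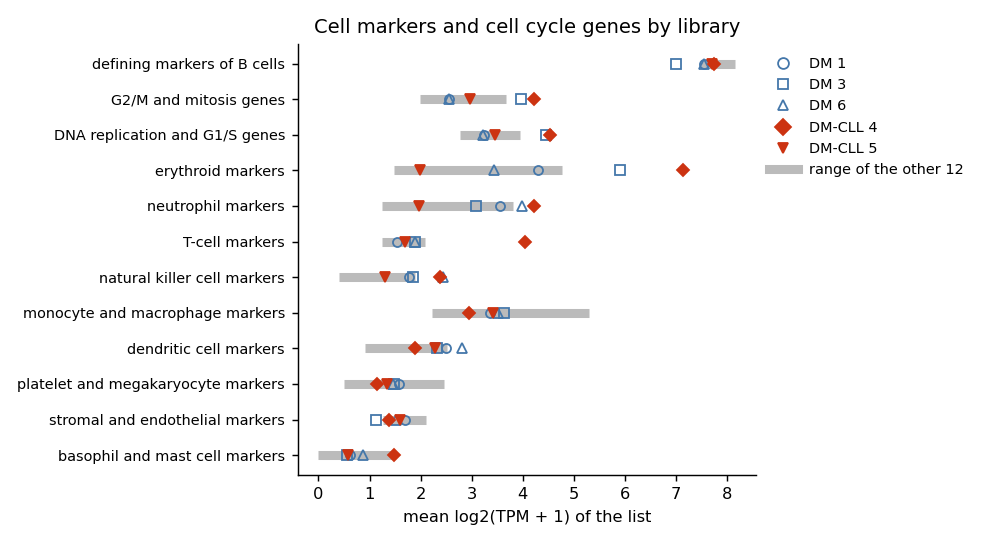
Each row gives the mean log2(TPM + 1) of a list of marker genes in the 3 DM libraries (open blue), the 2 DM-CLL libraries (filled red) and the range of the other 12 libraries (grey bar). B-cell markers are high and close together in all libraries. Erythroid, neutrophil and T-cell markers place DM-CLL 4 far to the right of DM-CLL 5, and natural killer markers also place it to the right.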

How the data were processed

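RNA of B cells was prepared with a spin-column kit and NEBNext Ultra libraries, per the labels' protocols. Per the submitters' processing notes, STAR and build mm10 were used; the quantification step is not given in the sources used here. The authors deposited 1 table of TPM for 18554 gene symbols in 17 libraries, every column of which was matched to a sample by its title. TPM give shares and no read depth, so no counting interval can be given. From these values log2(TPM + 1) was fitted with limma 3.58.1 in R 4.3.3 (group means over all 17 libraries, empirical Bayes with a trend, contrast DM-CLL minus DM, two-sided, Benjamini-Hochberg over the 9898 genes that reached 1 TPM in 2 or more libraries, threshold 0.05). On simulated data of this design, with 200 of 9898 genes changed, 54% of 2-fold and 91% of 4-fold changes were recovered, with 4.61% false calls. Far fewer genes were changed there than the 3084 called here, so these rates need not hold for the calls reported. The members and gene lists were chosen with earlier results of these data known, so a list is described by counts and medians only. Named genes were Sf3b1, Atm, a chosen set of B-cell and CLL genes, the 15 largest rises and falls of at least 5 TPM whose groups do not overlap, up to 4 passing members per list and direction, the 10 widest gaps to the other 15 libraries and the 10 largest differences between the DM-CLL libraries. Chromosomes were read from GENCODE M21 on GRCm38, in which 9734 tested genes matched once. Alternatives were another pseudocount, no filter, 4 rescalings, library weights, a replicate block, a fit on the 5 libraries, no trend and leaving out each library; a fit without Atm MT libraries 1 to 4 and a fit with Xist were added after seeing the data.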

Additional observations from a re-analysis of the deposited data

How the results depend on the processing

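On the deposited scale 3084 genes were called, 2889 higher and 195 lower in DM-CLL. Median-ratio scaling called 1622 (873 higher, 749 lower), rescaling to a common total 1504 (1212 higher), leaving out immunoglobulin genes 1497 (1207 higher) and leaving out ribosomal protein genes 1433 (819 higher, 614 lower). A fit on the 5 libraries alone called 1644 (1508 higher). Leaving out each of the 17 libraries in turn gave 1504 to 3345 calls, 1380 to 3125 higher and 124 to 220 lower, with the fewest without DM-CLL 4, when the remaining DM-CLL library is assumed to vary like the other groups. DM and DM-CLL share no replicate number, so the replicate block could be fitted through the other groups only, nothing shows that the numbers pair the libraries, and it called 1247 genes, 1098 of them higher. The other alternatives kept each of these counts within 1.5 times. Of 166 named genes that passed, 67 passed under every alternative and every omission, and none of the 166 changed sign under any of them. Of the settings, the replicate block ended 73 of these calls, rescaling without ribosomal proteins 69, median-ratio scaling 66 and leaving out DM-CLL 4 65; the cause was not tested. With 2 DM-CLL libraries, unknown depth and a sex difference that follows the groups in part, small differences could not be resolved.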
